A study of Ischnura elegans with 24 samples.

Results

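The warming response of southern larvae was set against that of northern larvae in the damselfly Ischnura elegans, contig by contig. The comparison used all 24 of the 24 libraries. For every contig the response of a latitude was its level at 24 °C minus its level at 20 °C on the log2 scale, and the difference was the southern response minus the northern response. A contig here is a transcript pieced together from the reads alone, with no genome behind it. Of 34095 contigs in the table, 31287 passed a filter on low counts, and 191 of these were left out because they had 0 counts in 10 or more libraries, which left 31096 contigs for the test.

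The groups were larvae of southern populations reared at 24 °C or at 20 °C, and larvae of northern populations reared at 24 °C or at 20 °C. Each latitude was represented by 3 populations, and every group held 6 libraries, a pool a and a pool b from each population. Per the labels, all libraries came from whole bodies of male larvae in the final instar, the last larval stage before the adult emerges. The larvae were reared singly on brine shrimp nauplii, and 3 larvae were combined in a pool. The larvae of a population descended from several mothers of that population, so both of its pools are separate larvae from a common source. The labels give no more detail on the place of origin than the latitude and a population number.

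A reaction norm describes how a trait changes with the environment, and a difference in its slope between populations is a difference in plasticity. Insects are ectotherms, so a warmer rearing temperature raises their metabolic rate and shortens larval development, and transcripts of many pathways shift with it. The series title names genetic compensation, where evolved differences in level run against the plastic response, and genetic assimilation, where a response that was once plastic becomes fixed. A difference between latitudes in the response itself is the interaction of latitude with rearing temperature.

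The deposited table does not pair contigs with gene names, and a search of the RefSeq genes of assembly ioIscEleg1.1 matched 0 contig identifiers. No function is therefore given to any contig, and the labelled tissue could not be checked against marker genes. In pools of whole bodies, a smaller share of a cell type and less RNA per cell cannot be told apart. Library totals were 12810307 to 16868514 counts for southern larvae at 24 °C, 12061616 to 16407152 for southern larvae at 20 °C, 13046281 to 17157615 for northern larvae at 24 °C and 13261720 to 16127829 for northern larvae at 20 °C. The 10 most abundant contigs took 17.1% to 23% of the counts of a library in southern larvae at 24 °C, 17.9% to 22.3% at 20 °C, 20.8% to 25.3% in northern larvae at 24 °C and 14.5% to 23.1% at 20 °C. The TMM scaling factor, which corrects for such shares, averaged 1.02 and 1.08 in southern larvae at 24 and 20 °C, and 0.89 and 1.03 in northern larvae at 24 and 20 °C.

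No contig passed the test of the difference. In edgeR's quasi-likelihood F test, 0 of 31096 contigs (0%) had a Benjamini-Hochberg adjusted p under 0.05, and the smallest adjusted p was 0.219. At an unadjusted p under 0.05 there were 1519 contigs, or 4.88% of those tested, where an even spread of p-values over all contigs would place 1555. The southern response was below the northern response in 897 of them (2.88%) and above it in 622 (2%). At an unadjusted p under 0.001 there were 27 contigs, where an even spread would place 31.1. DESeq2's Wald test with the same design called 15 contigs, 12 below and 3 above, and limma-voom called 0.

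**Figure D1:**
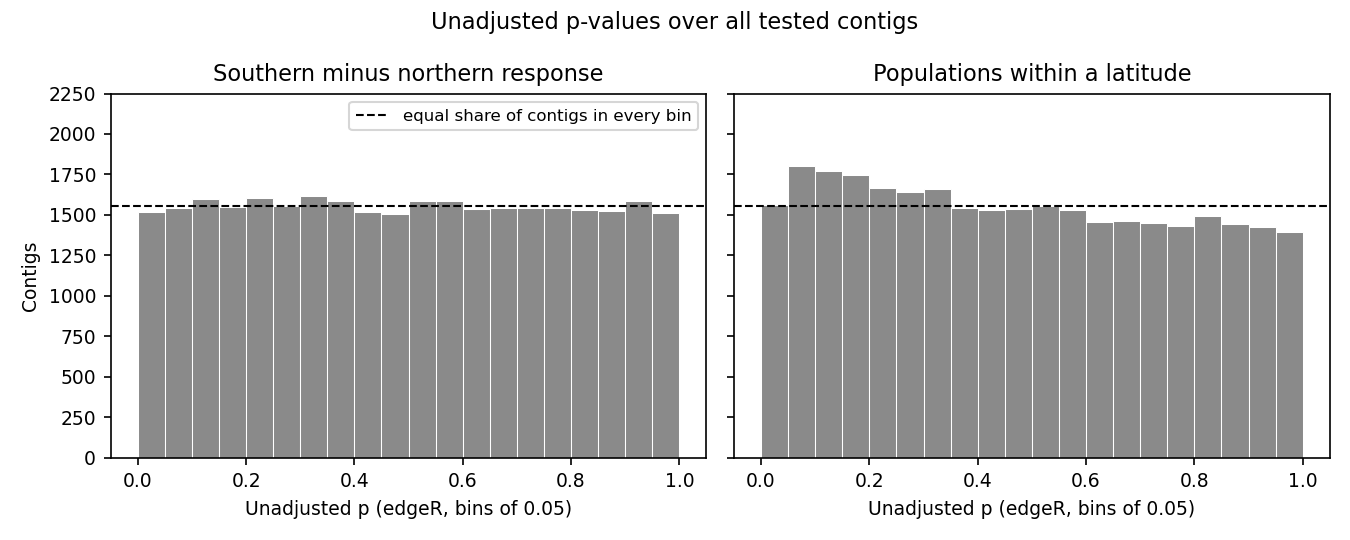
Histograms of unadjusted edgeR p-values (x axis, bins of 0.05) for 31096 contigs (y axis, contigs per bin), for the southern minus northern response (left) and for differences among populations within a latitude (right). The dashed line is an equal share of contigs in every bin, and the first bin holds 1519 contigs on the left and 1561 on the right.

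The balance of directions depended on the scaling of the libraries. With TMM factors, 40.9% of the contigs at an unadjusted p under 0.05 had the southern response above the northern one. On library totals without scaling factors this share was 77.5% of 1814 contigs, and the median difference over all contigs moved to 0.12, against -0.01 with TMM. Among the contigs at an unadjusted p under 0.001, 24 of 27 lay below with TMM, and 18 of 30 did without scaling factors. Each direction is therefore described separately, and nothing is read from the balance between them.

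Over all tested contigs the middle of the distribution was narrow. The lower and upper quartiles of the difference were -0.23 and 0.20 on the log2 scale, and its 5% and 95% quantiles were -0.81 and 0.78. Single latitudes gave 1 call for southern larvae (0.00322% of contigs) and 181 for northern larvae (0.582%), of which 113 rose and 68 fell at 24 °C. These calls in 1 latitude and not in the other are not a test of the difference, for which the count was 0.

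The precision of the difference depended on abundance. Over all contigs, the 95% confidence interval of limma-voom extended a median of 0.737 log2 units to either side of the estimate. For 50.2% of contigs (15618) the whole interval lay within a 2-fold change in either direction. Above a mean of 4 log2 CPM (CPM is a contig's count scaled to a common library size) this held for 89.3% of 6735 contigs, with a median of 0.311 log2 units to either side. Between 1 and 4 log2 CPM it held for 65.8% of 11731 contigs, and under 1 log2 CPM for 14.9% of 12630. A 2-fold difference between the latitudes was thus outside the interval for most abundant contigs, and was not resolved for most scarce ones.

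The ranking by unadjusted p was led by TRINITY_DN5756_c7_g1_i4, in which the southern response was below the northern one. In southern larvae at 24 °C its lowest, median and highest levels were 5.03, 6.49 and 8.56 CPM, against 9.61, 10.3 and 12.1 CPM in southern larvae at 20 °C. In northern larvae at 24 °C they were 8.85, 16.2 and 33.2 CPM, against 8.56, 9.21 and 13.9 CPM in northern larvae at 20 °C. All 6 southern libraries at 24 °C lay under all 6 southern libraries at 20 °C and under all 6 northern libraries at 24 °C, while the northern libraries at the 2 temperatures overlapped. The response was -0.67 ± 0.16 in southern and 0.70 ± 0.16 in northern larvae (log2, SE), and the difference was -1.37 ± 0.23 with a 95% interval of -1.85 to -0.90 (edgeR adjusted p = 0.219). All 3 southern populations had a negative response (-0.56, -0.78 and -0.69 in populations 1, 2 and 3), and all 3 northern populations a positive one (0.85, 0.93 and 0.19). The difference was -1.51 ± 0.31 in the a pools alone and -1.19 ± 0.24 in the b pools alone. Neither latitude's own response passed the edgeR test, with adjusted p-values of 0.333 in southern and 0.0502 in northern larvae.

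Whether this contig passed depended on the method, the filter and single libraries. With all libraries, TRINITY_DN5756_c7_g1_i4 passed in DESeq2 (adjusted p = 0.000644) and in edgeR with the sparse contigs kept (adjusted p = 0.0318). With those kept, its difference was still -1.37 and it stood at place 7 instead of 1. A Benjamini-Hochberg adjusted p also depends on the place, so this pass is no separate evidence for the contig. Without pool b of northern population 3 at 24 °C, the lowest of its group at 8.85 CPM, it had a difference of -1.48 with an edgeR adjusted p of 0.0357. Without pool a of northern population 2 at 24 °C, the highest library at 33.2 CPM, its difference was -1.20 and the edgeR adjusted p was 0.16, still the first place in the ranking. In all, it passed in 3 of 43 alternatives. The edgeR adjusted p was 0.806 without northern population 1, 0.897 without northern population 2 and 0.606 without the population block.

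TRINITY_DN19947_c0_g1_i1 was the second contig in that direction and a scarce one. It had 9 to 23 counts in southern libraries at 24 °C (105 in all) and 10 to 31 at 20 °C (122 in all). In northern larvae it had 0 to 13 counts at 24 °C (53 in all), and at 20 °C it had 0 counts in 5 libraries and 1 count in pool b of population 2. Every southern library at 20 °C thus lay above every northern library at 20 °C, while at 24 °C the latitudes overlapped, with 4 northern libraries at 0.708 to 0.918 CPM inside the southern range and the northern libraries at 0.553 and 0 CPM under it. The ratio of the 24 °C to the 20 °C level was 0.897 in southern larvae (95% counting interval 0.684 to 1.17) and 60.3 in northern larvae (10.4 to 2430). These intervals cover counting error only, and the northern one is wide because a single count stands under it. The northern response passed its own test (edgeR adjusted p = 0.00476), so this contig rose at 24 °C in northern larvae. The difference, -5.22 ± 0.92, did not pass (edgeR adjusted p = 0.242), and its size depends on the prior count that replaces the missing counts. Without pool b of northern population 3 at 24 °C, the library at 0, the difference was -5.46 and the edgeR adjusted p 0.013, and with all libraries DESeq2 gave an adjusted p of 0.00256. These were the 2 of 42 alternatives in which it passed. In limma-voom the difference was -3.92 at place 18 (adjusted p = 0.725), and with both pools summed the edgeR adjusted p was 0.918.

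With the southern response above the northern one, TRINITY_DN222740_c0_g1_i1 came first, at place 13 of the whole ranking. Its lowest, median and highest levels were 136, 159 and 168 CPM for southern larvae at 24 °C, against 132, 151 and 186 CPM for southern larvae at 20 °C. In northern larvae they were 97.3, 108 and 129 CPM at 24 °C, against 136, 154 and 184 CPM at 20 °C. The northern libraries at 24 °C lay apart, under every northern library at 20 °C and under every southern library at 24 °C, while the southern temperatures overlapped throughout. It fell in northern larvae by 0.49 ± 0.08 on the log2 scale (edgeR adjusted p = 0.00877), and the southern response was 0.02 ± 0.08. The northern populations had responses of -0.51, -0.38 and -0.59, and the southern populations of 0.05, -0.09 and 0.10. The difference was 0.51 ± 0.12 with a 95% interval of 0.27 to 0.75, and did not pass (edgeR adjusted p = 0.672), although it did in DESeq2 (adjusted p = 0.0368).

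TRINITY_DN50651_c0_g1_i1 came second in that direction, at place 21. It had 0 to 144 counts in southern libraries at 24 °C (355 in all) and 0 to 67 at 20 °C (151 in all). Northern libraries had 0 to 2 counts at 24 °C, with 4 libraries at 0 and 3 counts in all, and 1 to 9 counts at 20 °C (31 in all). Southern populations 1 and 2 held nearly all of these counts, and southern population 3 had at most 6 counts in a library. The ratio of the 24 °C to the 20 °C level was 2.45 in southern larvae (95% counting interval 2.02 to 2.98) and 0.11 in northern larvae (0.0215 to 0.353). The difference was 4.34 ± 1.06 and did not pass (edgeR adjusted p = 0.838), and neither did either latitude's response (edgeR adjusted p = 0.602 in southern and 0.142 in northern larvae).

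**Figure D2:**
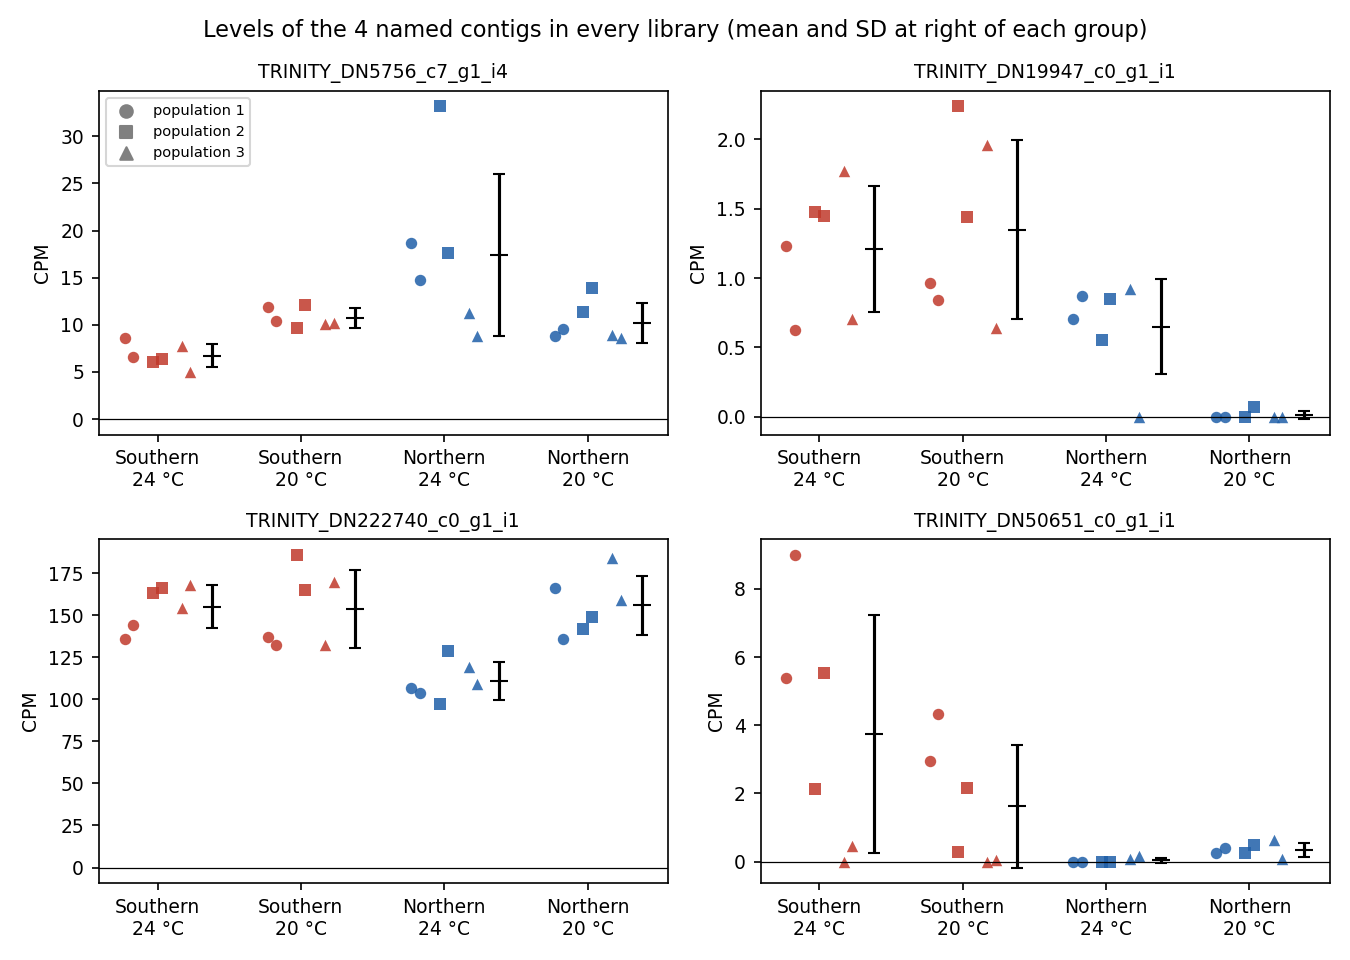
Level (y axis, CPM) of the 4 named contigs in every library, for southern larvae at 24 and 20 °C (red) and northern larvae at 24 and 20 °C (blue), with marker shapes for populations and the mean with its SD at the right of each group (n = 6). TRINITY_DN5756_c7_g1_i4 is lowest in southern larvae at 24 °C, and TRINITY_DN222740_c0_g1_i1 is lowest in northern larvae at 24 °C.

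Assembly clusters are sets of contigs that the assembler joined by shared sequence, and 4 of the 20 leading contigs with the southern response below came from the cluster TRINITY_DN5756. The cluster had 6 contigs, all tested. Of these, 5 stood at places 1, 3, 4, 17 and 38 of the ranking, with differences of -1.37, -1.51, -1.36, -1.24 and -1.36. Their mean levels were 5.02 to 8.88 CPM in southern larvae at 24 °C, against 8.14 to 13.5 CPM at 20 °C. In northern larvae the means were 12.1 to 21.7 CPM at 24 °C, against 7.3 to 13.3 CPM at 20 °C. In each of the 5 the southern populations all had negative responses, and the northern populations had positive ones except population 3 for the contig at place 38, at -0.01. The sixth contig, at about a mean of -0.55 log2 CPM, stood at place 18881 with a difference of 0.31.

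These 5 contigs are not 5 independent measurements, since contigs of a cluster can share reads. When counts were summed over the 4 contigs of the gene TRINITY_DN5756_c7_g1, the difference was -1.32 and ranked seventh of 27058 genes (edgeR adjusted p = 0.38), and 0 genes were called. Pool a of northern population 2 at 24 °C was the highest library for each of the 5 contigs, at 33.2 CPM for the leading contig and 45.1 CPM for the contig at place 17.

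**Figure D3:**
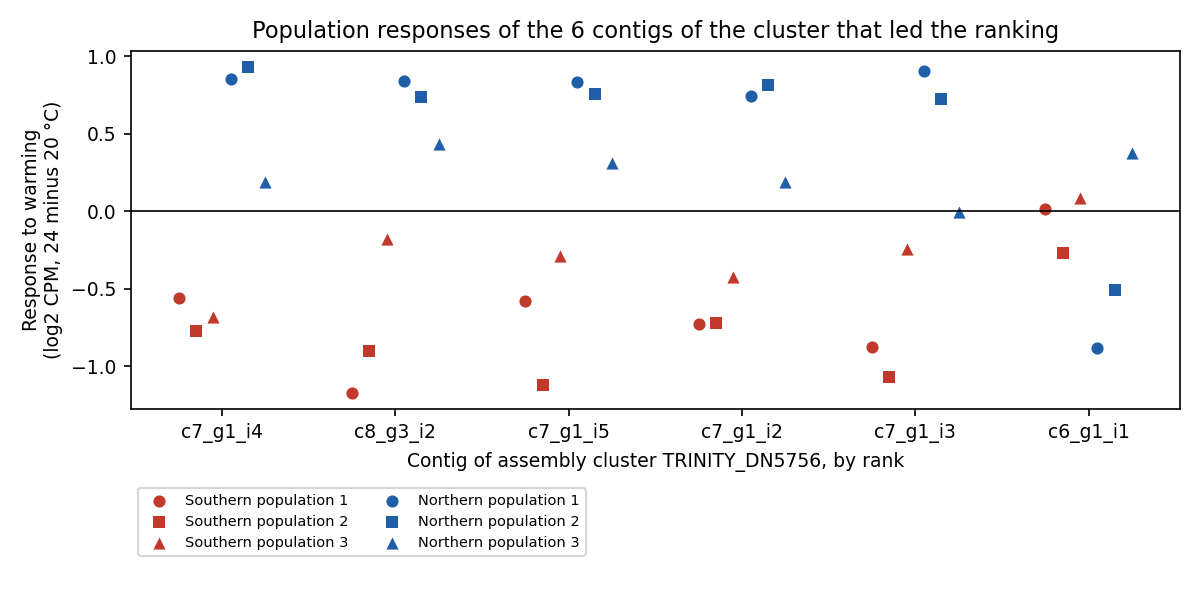
Response to warming (y axis, log2 CPM at 24 minus 20 °C) of each of the 3 southern (red) and 3 northern (blue) populations for the 6 contigs of the cluster TRINITY_DN5756 (x axis, by rank). In 5 contigs the southern points lie under the northern points, with population 3 the northern point nearest to 0, and in the contig at place 18881 they overlap.

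The 20 leading contigs with the southern response below had differences of -5.22 to -0.545 (median -1.33), unadjusted p-values of 7.05e-06 to 0.000599 and edgeR adjusted p-values of 0.219 to 0.846. They came from 18 assembler genes. The median response was -0.42 in southern and 0.82 in northern larvae, and the fitted responses had opposite signs in 20 of 20, against 40.6% of all contigs with the southern response below. The northern response was positive in all 3 populations for 20 of 20 contigs (28.8% of all such contigs for the same count), and the southern response was negative in all 3 populations for 14 of 20 (21.1%). Northern responses were larger in size than southern ones in 17 of 20, against 58.2% overall. The responses of the 3 southern and the 3 northern populations did not overlap in 20 of 20, where 5.4% of all tested contigs had no overlap in this direction. These counts describe the ranked contigs and were not tested, because the ranking used the same values.

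The leading contigs in this direction included abundant ones. The most abundant, at place 18 of the ranking, had a lowest, median and highest level of 2860, 4770 and 7040 CPM in southern larvae at 24 °C, against 4810, 5680 and 6260 CPM at 20 °C. In northern larvae it had 6670, 10300 and 10900 CPM at 24 °C, against 3770, 4840 and 6950 CPM at 20 °C. Northern larvae at 24 °C were the high group, although their lowest library lay under the highest of northern larvae at 20 °C and of southern larvae at 24 °C. It rose in northern larvae by 0.89 ± 0.19 on the log2 scale (edgeR adjusted p = 0.0374), and the southern response was -0.22 ± 0.19. The difference of -1.11 ± 0.27 did not pass (edgeR adjusted p = 0.827).

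Another abundant leader was the contig at place 8. Its lowest, median and highest levels were 62.7, 64.7 and 79.6 CPM in southern larvae at 24 °C, against 44.7, 72.1 and 81.3 CPM at 20 °C. In northern larvae they were 54.8, 90.7 and 107 CPM at 24 °C, against 41.8, 51.2 and 61.2 CPM at 20 °C. The groups overlapped in both latitudes. The northern populations nevertheless all had positive responses, at 0.98, 0.60 and 0.55. The northern response of 0.72 ± 0.11 passed its own test (edgeR adjusted p = 0.00476). The southern populations had -0.07, -0.23 and 0.19, and the difference was -0.77 ± 0.16 (edgeR adjusted p = 0.315).

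In total, 9 of the 20 contigs with the southern response below and 4 of the 20 with it above passed the edgeR test for the northern response, which 0.582% of all tested contigs passed. For the southern response 0 of the 40 passed, against 0.00322% of all tested contigs. The northern response is a term of the difference, so these counts share libraries with the ranking and are no separate evidence for it.

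The 20 leading contigs with the southern response above had differences of 0.484 to 4.87 (median 1.59), unadjusted p-values of 0.000281 to 0.00309 and edgeR adjusted p-values of at least 0.672. They came from 20 assembler genes, and 9 of 20 were under a mean of 1 log2 CPM, against 3 of 20 in the other direction. Among all tested contigs, 6279 of 15333 with the southern response above and 6351 of 15763 with it below were under this level. The 9 of 20 thus lay near the general share, and the 3 of 20 lay under it. The median response was 0.76 in southern and -1.02 in northern larvae, with opposite fitted signs in 18 of 20 (39.1% of all contigs with the southern response above). The northern response was negative in all 3 populations for 16 of 20 (26.4%), and the southern response was positive in all 3 for 10 of 20 (20.6%). Northern responses were larger in size in 15 of 20, against 57.3% overall. The population responses did not overlap in 18 of 20, where 4.5% of all tested contigs had no overlap in this direction.

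The most abundant contig in this direction stood at place 56 of the ranking. It had a lowest, median and highest level of 698, 731 and 928 CPM in southern larvae at 24 °C, against 570, 636 and 877 CPM at 20 °C. In northern larvae it had 147, 431 and 558 CPM at 24 °C, against 448, 650 and 884 CPM at 20 °C. At 24 °C every southern library lay above every northern library, while the temperatures overlapped within each latitude. Its northern response was -0.71 ± 0.18 (edgeR adjusted p = 0.0738) and its southern response 0.19 ± 0.18, and the difference was 0.89 ± 0.25 (edgeR adjusted p = 0.988).

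A different pattern was found at place 70, where both latitudes had a lower level at 24 °C. Its mean level was 24.7 ± 6.54 CPM in southern larvae at 24 °C, against 39.9 ± 5.72 CPM at 20 °C. In northern larvae it was 15.7 ± 6.11 CPM at 24 °C, against 45.5 ± 11.9 CPM at 20 °C (SD, n = 6 each). The responses had the same sign and differed in size. It fell by 1.59 ± 0.19 on the log2 scale in northern larvae (edgeR adjusted p = 0.000302), and the southern response was -0.71 ± 0.18 (edgeR adjusted p = 0.376). The difference of 0.88 ± 0.26 did not pass (edgeR adjusted p = 0.988). The contigs at places 8, 18, 56 and 70 were singled out after their values were seen.

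**Figure D4:**
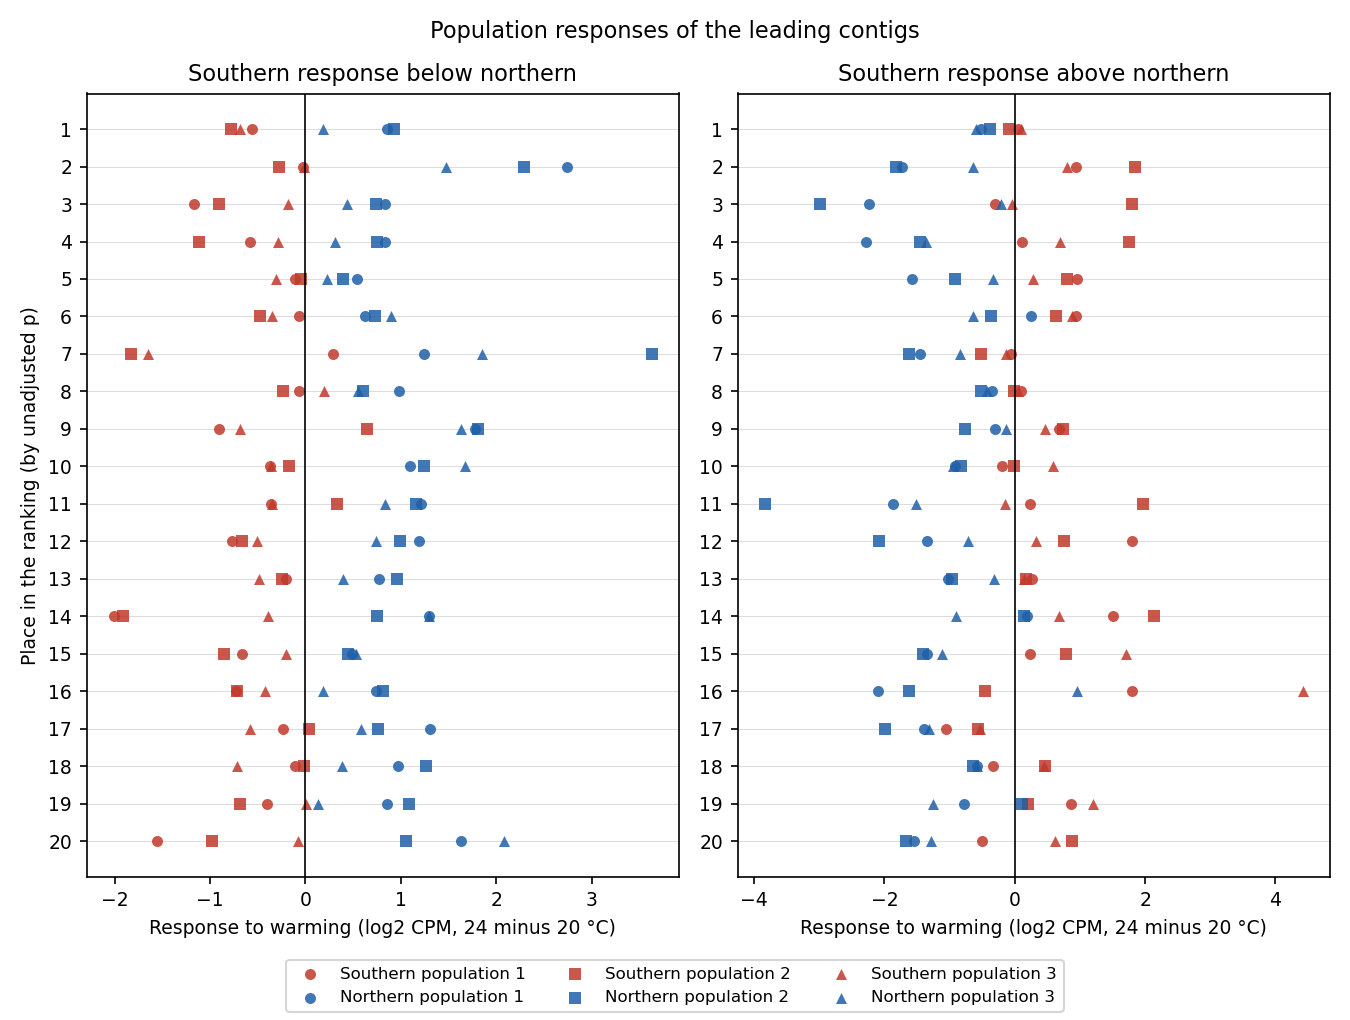
Response to warming (x axis, log2 CPM at 24 minus 20 °C) of each southern (red) and northern (blue) population for the 20 leading contigs in each direction (y axis, place by unadjusted p). On the left all northern points are above 0 and within a contig no southern point reaches them, and on the right the populations overlap in 2 of 20 contigs.

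For most leaders the sign of the latitude difference turned with temperature, although some differences at 20 °C were close to 0. At 20 °C it was 0.09 for TRINITY_DN5756_c7_g1_i4 and -0.03 for TRINITY_DN222740_c0_g1_i1, and the libraries of the latitudes overlapped for both. Of the 20 contigs with the southern response below, 15 were higher in southern larvae at 20 °C and lower in southern larvae at 24 °C. This held for 30.9% of all contigs with that sign, and for 73.5% of those at an unadjusted edgeR p under 0.05. The median latitude difference, southern minus northern, was -1.15 at 24 °C and 0.15 at 20 °C. Of the 20 contigs with the southern response above, 16 turned the other way, against 30.5% and 73.6%. The median latitude difference there was 0.84 at 24 °C and -0.51 at 20 °C. In both sets the latitudes were further apart at 24 °C than at 20 °C by these medians, which are parts of the ranked value and were not tested.

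The populations of a latitude gave different median responses for the leaders. Over the 20 contigs with the southern response below, the median response was -0.38, -0.57 and -0.36 in southern populations 1, 2 and 3, and 0.976, 0.945 and 0.567 in northern populations 1, 2 and 3. Over the 20 contigs with the southern response above, it was 0.23, 0.69 and 0.46 in the southern populations and -1.35, -1.19 and -0.68 in the northern ones. Northern population 3 thus had the smallest median response of the northern populations in both sets. It was the northern population nearest to the southern ones in 14 of 20 contigs below and 13 of 20 above, against 37.3% and 36.2% of all contigs with those signs. The leading contigs of the cluster TRINITY_DN5756, which are not independent measurements, are all among those 14. Both counts come from responses that the ranking used, and they were not tested. The southern populations shared this place more evenly, with 4, 6 and 10 contigs below and 7, 6 and 7 above for populations 1, 2 and 3.

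Which contigs led depended on single populations and also on single libraries. The lowest overlap came without northern population 1, where 7 of the 20 leaders below and 4 of the 20 above stayed among the first 20 of their direction. Among the first 100 there were 18 and 10. With each of the other populations left out, 10 to 14 below and 4 to 9 above stayed among the first 20. With 1 library left out, 12 to 18 below and 5 to 16 above did. In the 24 fits that each left out a library and the 6 that each left out a population, all 40 leaders kept the sign of their difference, which both their selection and the shared libraries favour. TRINITY_DN5756_c7_g1_i4 held places 1 to 6 across these fits. The other named contigs moved further. TRINITY_DN19947_c0_g1_i1 held places 1 to 18, TRINITY_DN222740_c0_g1_i1 places 3 to 97 and TRINITY_DN50651_c0_g1_i1 places 9 to 271.

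The spread of responses among populations within a latitude was tested on the same contigs. In edgeR's quasi-likelihood F test over the 3 southern and the 3 northern populations, 0 contigs (0%) had an adjusted p under 0.05, the smallest adjusted p was 0.141, and 1561 contigs (5.02%) had an unadjusted p under 0.05. By latitude there were 1282 (4.12%) at this level among southern and 2137 (6.87%) among northern populations, with 0 calls in each. These counts depended on single libraries. Without pool b of northern population 2 at 24 °C, 66 contigs were called and 2217 had an unadjusted p under 0.05. Without pool a of northern population 1 at 20 °C, 0 were called and 2623 had an unadjusted p under 0.05. At 24 °C, leaving out pool b of southern population 2, pool a of southern population 3 or pool b of southern population 3 gave 1, 1 and 3 calls. None of the 20 leaders below and 1 of the 20 above had an unadjusted p under 0.05 for this spread. The 4 named contigs had edgeR adjusted p-values of 0.911 to 0.984 for it. The ranking itself favours contigs whose populations within a latitude respond alike, so these values are no separate evidence of like responses. The SD of the response over all contigs was 0.546, 0.529 and 0.563 in southern populations 1, 2 and 3 and 0.588, 0.75 and 0.559 in northern populations 1, 2 and 3. The mean SD was 0.546 in southern and 0.632 in northern populations (exact permutation test over populations, p = 0.2). With 3 populations against 3, the smallest p of this test is 0.1, so it could not reach the threshold and nothing is read from it.

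Both pools of a population allow the response to be measured in separate larvae. The covariance of the pool a and pool b responses over 18466 contigs with a mean of at least 1 log2 CPM was 0.0139, -0.02 and 0.0143 in southern populations 1, 2 and 3, and -0.0262, 0.156 and 0.0298 in northern populations 1, 2 and 3. Northern population 2 thus stood above the other populations, whose values lay close to 0 on this scale of squared log2 units. The mean was 0.00273 in southern and 0.0532 in northern populations (exact permutation test over populations, p = 0.5), a test with the same limit as for the SD.

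The difference between latitudes was then fitted in the a pools alone and in the b pools alone. Each fit called 0 contigs in edgeR, with 1252 (4.03%) and 1259 (4.05%) contigs at an unadjusted p under 0.05. Across contigs the 2 sets of differences had a Pearson correlation of 0.02 and a Spearman correlation of 0.0048 over all contigs, and of 0.13 and 0.06 over contigs of at least 1 log2 CPM. These are correlations across 31096 and 18466 contigs of the same 12 and 12 libraries, and contigs are not independent replicates. The sign was the same in both pools for 51.1% of contigs.

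Contigs ranked in the pools of 1 letter were then read in the pools of the other. Of the 20 with the smallest p in the a pools and the southern response below, 75% had the same sign in the b pools, and of the 20 ranked in the b pools 70% did in the a pools. For the first 100 these shares were 67% and 67%, and for the first 500 they were 62.6% and 60.4%. With the southern response above, the shares were 50% and 45% for the first 20, 65% and 42% for the first 100, and 56.2% and 43% for the first 500. The shares below were thus higher than the 51.1% of all contigs in every size, and the shares above lay on either side of it. Of the first 20 below, 45% of those ranked in the a pools had an unadjusted edgeR p under 0.05 in the b pools. For those ranked in the b pools it was 25% in the a pools, and above these shares were 5% and 10%. Over all contigs they were 4.03% in the a pools and 4.05% in the b pools. Contigs are not independent replicates, and these shares were not tested. The first 2 contigs of each direction in the a pools stood at places 17148 and 13563 (southern response below) and 14618 and 24174 (above) in the b pools, where those at 13563 and 14618 had the opposite sign. The first 2 of the b pools stood at places 10243 and 16905 (below) and 24794 and 1459 (above) in the a pools. The contig at place 1459 had the opposite sign there, with a difference of 5.22 in the b pools and -2.69 in the a pools.

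**Figure D5:**
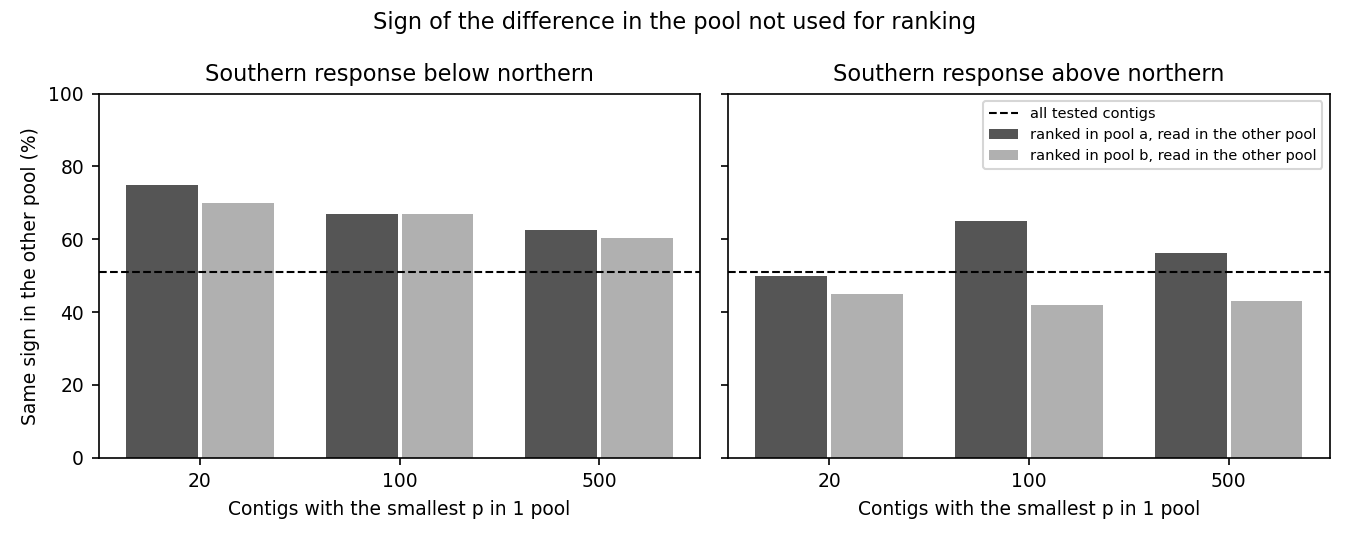
Share of contigs (y axis, %) whose difference had the same sign in the other pools, for the 20, 100 and 500 contigs (x axis) with the smallest p in the a pools (dark) or the b pools (light). The dashed line is the 51.1% of all tested contigs, and the bars for the southern response below (left) lie above it.

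Some leaders had further contigs from the same assembler gene. The 20 leaders below had 7 further tested contigs of their genes, of which 7 had the same direction and 5 an unadjusted p under 0.05. The 20 leaders above had 8, of which 6 had the same direction and 4 an unadjusted p under 0.05. Over all tested contigs 50.7% had the southern response below and 4.88% an unadjusted p under 0.05, and how often contigs of a gene share a direction in general was not measured. Reads shared between such contigs can give them like values.

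The 191 contigs left out for 0 counts in 10 or more libraries changed the count of calls. With them kept, edgeR called 8 contigs (0.0256% of 31287), of which 7 were such sparse contigs and the other was TRINITY_DN5756_c7_g1_i4. The 7 had nearly all of their counts in the same 6 libraries: both 24 °C pools of southern population 2 and all 4 libraries of northern population 1. Their summed counts were 1007 to 2027 in these libraries and no more than 2 in any of the remaining 18. In southern larvae these counts thus came almost entirely from 1 population at 1 temperature, and in northern larvae from 1 population at both.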

How the data were processed

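The values were raw counts of reads per contig, taken as the authors deposited them, with no normalisation before deposit. Subread 1.5.1, featureCounts, Trimmomatic 0.36 and FastQC 0.11.5 appear in the submitters' processing notes, with no roles stated. How the contigs were assembled and filtered, and whether counting used strand, is not given in the sources used here. The analysis used R 4.3.3 and edgeR 4.0.16. The steps were TMM scaling, filterByExpr over the 4 groups (minimum count 10, minimum total 15), removal of contigs with 0 counts in 10 or more libraries, and robust quasi-likelihood F tests with Benjamini-Hochberg adjustment over all 31096 contigs at 0.05. The design had 6 population intercepts and a temperature effect in each latitude, and the southern minus the northern effect was tested. The spread among populations was tested on 12 population-by-temperature means.

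Population responses are differences of mean log2 CPM (prior count 2) between 24 and 20 °C over the 2 pools of a population, and SE values follow from the F statistics. Alternatives used DESeq2 1.42.0 and limma 3.58.1, other filters and scalings, and fits without single libraries or populations. Ratios from scarce counts carry exact intervals for counting error only, and a count of 3 over a group was taken as the floor of detection. The tests were also tested on simulated data. The labels pair libraries by population. As deviations from their group means, a population's libraries at the 2 temperatures correlated at -0.0141 (northern population 2) to 0.292, and 0 pairs of libraries were identical. Pools are separate larvae of 1 population. For the difference, p-values measure the spread between these pools together with the spread of responses among populations of a latitude. For the spread among populations, they measure the spread between pools. With both pools of a population summed, the smallest edgeR adjusted p of the difference was 0.918. The named contigs are the 2 with the smallest p in each direction, and the leaders the 20 smallest. The comparison and these lists were chosen with earlier results of these data known.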

Additional observations from a re-analysis of the deposited data

Results flagged for a closer look

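Among 36 contig-by-group sets of 6 libraries, 3 held a library that stood far from the others, and chance alone flags about 1 in 20 such sets. In northern larvae at 24 °C, pool a of population 2 had 45.1 CPM for the contig of cluster TRINITY_DN5756 at place 17 and 26.8 CPM for the contig at place 3. In northern larvae at 20 °C, pool b of population 2 had 0.0684 CPM of TRINITY_DN19947_c0_g1_i1, which is 1 count, where the other libraries had 0. Any lone count among zeros is marked in this way, so that rate does not apply to it. Outside the tested contigs, 7 with 0 counts in 10 or more libraries passed the edgeR test when they were kept, with differences that rest on southern population 2 at 24 °C and northern population 1.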

How the results depend on the processing

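The count of called differences was 0 in edgeR, and DESeq2 raised it to 15, of which 12 of 12 below and 2 of 3 above were among the leaders. Keeping the sparse contigs gave 8. Leaving out each library gave 0 to 2 calls, the 2 without pool b of northern population 3 at 24 °C and 1 without pool b of southern population 3 at 20 °C. Without the population block 0 contigs were called and 1566 had an unadjusted p under 0.05. The same count of 0 came from RLE scaling, no scaling factors (chosen after seeing the data), limma-voom, no robust estimation, no filterByExpr filter, summed pools, single pools and sums over assembler genes. The 1519 contigs at an unadjusted p under 0.05 became 803 of 15401 with a minimum count of 50, where fewer contigs were tested, and 1248 to 1879 with libraries or populations left out. The spread among populations gave 0 to 66 calls with each library left out, 66 of them without pool b of northern population 2 at 24 °C. It gave 1, 1 and 3 without southern libraries at 24 °C, pool b of population 2 and pools a and b of population 3; the cause was not tested. The 4 named contigs kept their sign in all alternatives and passed in 3 of 43, 2 of 42, 1 of 43 and 0 of 42 of them. Their lowest adjusted p-values, all from DESeq2, were 0.000644, 0.00256, 0.0368 and 0.0528, and their highest was 1. Depth limits the scarce contigs, and the 3 populations a latitude limit every comparison.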
